A study of Mus musculus with 22 samples.

Results

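Krt6a, Krt6b, Krt16 and Krt17 are the keratins that stratified epithelium adds to its usual set when it is wounded, inflamed or overgrowing. They were picked by name from the 17541 genes of the deposited count table, of which 46 are keratins, with their high levels in the carcinogen-treated mice, which develop squamous carcinoma of the esophagus (ESCC), already known. The levels by condition, the shares of cells and the co-detection in ESCC cells that chose them are therefore given below as a description, with no test. Tests are given where the choice did not use the comparison, namely between classes of cells of the same mice and between ages.

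Keratins form the filaments that carry mechanical load across an epithelial sheet, and each filament pairs a type II with a type I chain. In normal esophagus the basal layer uses Krt5 (type II) with Krt14 and Krt15 (type I), and the layers above use Krt4 (type II) with Krt13 (type I). Krt6a and Krt6b are type II chains and Krt16 and Krt17 are type I chains. In skin, Krt6 and Krt16 are switched on in the suprabasal cells at a wound edge and in psoriasis, while Krt17 is also found in basal cells and in hair follicles.

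Epithelium peeled from the esophagus of 13 C57B6 mice was profiled by inDrop, a droplet method that tags each captured transcript with a unique molecular identifier (UMI). The 6 control mice were untreated, with mice 1, 2 and 6 young (3 to 4 months) and mice 3, 4 and 5 old (18 to 20 months), and each gave 2 libraries. The 4 mice with eosinophilic esophagitis (EoE) went through a course of 32 days. MC903, a vitamin D analog, was first given with ovalbumin (OVA) on the ears, and then OVA alone was given by mouth. EoE mice 9 and 10 were young (6 to 8 weeks) and mice 11 and 12 old (19 to 20 months), with 1 library each. The 3 ESCC mice, labelled 8M, 17F and 17M, were 8 to 10 months old, drank the carcinogen 4NQO for 16 weeks and plain water for 8 weeks more, and gave 2 libraries each. Neither disease is driven by a transgene. The labels name no batch, no age is shared between ESCC and control, and depth differed between conditions, so condition, age group and any unrecorded batch cannot be told apart for ESCC.

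Of 4500 deposited cells, 1500 per condition, the analysis kept those with 250 to 3500 genes and 100 to 9500 UMIs that did not carry more immune, fibroblast, endothelial or muscle marker UMIs than epithelial ones. This left 1493 control cells (median 990 UMIs), 1464 ESCC cells (median 3109) and only 143 EoE cells (median 519), since the median deposited EoE cell held 138 UMIs. Summed per mouse, the kept cells held 111043 to 427752 UMIs in control, 1231048 to 2091580 in ESCC and 6245 to 41909 in EoE, where mouse 11 kept 11 cells. The libraries of a mouse were not separate draws of cells. In each of the 9 mice with 2 libraries, 4 to 52 cell barcodes were present in both, and the paired columns correlated with a median r of 0.70 to 0.88, against 0.34 to 0.55 for other pairs of columns. Only 43 of 4218 barcodes were found in more than 1 mouse. Libraries were therefore pooled per mouse, and shares of cells counted each barcode of a mouse as 1 cell, which left 1372 control and 1348 ESCC cells. Krt5 and Krt14, which define the basal epithelium, were present in every mouse: Krt5 lay at 4285 to 7039 CPM in control, where CPM is a gene's UMIs relative to all UMIs of the mouse, scaled to a fixed total, 9564 to 12845 in ESCC and 191 to 701 in EoE.

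Krt6a and Krt6b are close copies, which matters for every value below. In GENCODE M21 on GRCm38 both lie on chromosome 15, minus strand: Krt6a (ENSMUSG00000058354) at chr15:101689910-101694307 and Krt6b (ENSMUSG00000023041) at chr15:101676023-101680287, with 9 exons each. Their coding sequences agreed at 1622 of 1659 aligned bases (97.8%). The last 90 coding bases of each gene, in exon 9, show where they part. Capitals mark bases that differ or that lie opposite a gap.
Krt6a, chr15:101690470-101690559, minus strand: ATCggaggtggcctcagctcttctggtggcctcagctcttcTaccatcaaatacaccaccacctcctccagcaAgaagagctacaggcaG
Krt6b, chr15:101676532-101676621, minus strand: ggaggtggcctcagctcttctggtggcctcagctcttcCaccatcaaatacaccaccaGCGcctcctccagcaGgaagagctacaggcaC
Each sequence holds 6 such bases of 90. Over the whole coding sequence, 1109 of the 1629 stretches of 31 bases in Krt6a (68.1%) also occur in Krt6b, whereas none of the 470 such stretches in the last 500 bases of its transcript does. inDrop reads come from the 3′ end of transcripts, where the genes can be told apart. A read that fell further upstream could not be assigned to one of them with certainty, and how many did so is not known from counts.

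The type I members are less alike. Krt16 (ENSMUSG00000053797) lies at chr11:100246091-100248902 and Krt17 (ENSMUSG00000035557) at chr11:100256217-100261029, both on the minus strand with 8 exons. Their coding sequences agreed at 78.2% of aligned bases, and none of the 270 stretches of 31 bases in the last 300 bases of either transcript occurs in that stretch of the other. In the last 500 bases, 25 of the 470 such stretches of each (5.32%) occur in the other gene. In Krt16, 13 of those 270 stretches (4.81%) also occur in the gene Gm11597. Levels below are UMIs, which count captured 3′ ends and are not scaled by transcript length.

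Krt6a had the highest mean level of the 4 members in control epithelium. After TMM scaling, its level in the young control mice 1, 2 and 6 was 545, 342 and 284 CPM, and in the old control mice 3, 4 and 5 it was 84.2, 145 and 327 CPM. In the ESCC mice 8M, 17F and 17M it was 2600, 5704 and 7425 CPM. Every ESCC mouse lay above every control mouse, with group means of 288 ± 163 CPM (SD, n = 6) in control and 5243 ± 2445 CPM (SD, n = 3) in ESCC. Pooled over mice the ratio was 18.1 (95% counting interval 16.6 to 19.7, from 24428 and 531 UMIs), and the edgeR log2 fold change was 4.14 ± 0.37 (SE).

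Krt6b, the second Krt6 chain, was rare in control. Its level was 65.3, 4.89 and 51.7 CPM in the young control mice 1, 2 and 6 and 84.2, 55.1 and 29.4 CPM in the old mice 3, 4 and 5. The ESCC mice 8M, 17F and 17M held 1363, 4193 and 6878 CPM. The groups did not overlap, and the pooled ratio was 95.5 (counting interval 76.9 to 120, from 19928 and 82 UMIs). The log2 fold change was 6.43 ± 0.39 (SE). Krt6b made up 1.41 to 50.0% of the Krt6a and Krt6b UMIs of a control mouse and 34.4, 42.4 and 48.1% in ESCC mice 8M, 17F and 17M.

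Krt16, the type I chain that pairs with Krt6, was close to absent from control. It had 3 UMIs over all 6 control mice, 1 each in mice 4, 5 and 6, at 2.51, 3.68 and 3.23 CPM, and was at 0 in mice 1, 2 and 3. In the ESCC mice 8M, 17F and 17M it stood at 81.5, 1304 and 2062 CPM. Every ESCC mouse lay above every control mouse, and mouse 8M lay far below the other ESCC mice. The pooled ratio of 748 rests on the 3 control UMIs and has a counting interval of 256 to 3629.

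Krt17, the type I chain that is also found in basal cells of skin, was at 80.4, 29.3 and 19.4 CPM in the young control mice 1, 2 and 6 and at 84.2, 30.1 and 36.8 CPM in the old mice 3, 4 and 5. It was at 91.3, 632 and 1023 CPM in the ESCC mice 8M, 17F and 17M. Mouse 8M lay just above the highest control mouse on this scale. By library size alone it was at 75.5 CPM, below control mice 3 and 1 at 81.0 and 79.5 CPM, so the groups then overlapped. The pooled ratio was 15.0 (counting interval 11.9 to 19.1, from 2863 and 75 UMIs), and the log2 fold change was 3.72 ± 0.44 (SE). Counting intervals cover counting error only, not the spread between mice. Over the whole table, edgeR called 34.4% of the 5863 tested genes between ESCC and control at an adjusted p of 0.05, 17.9% higher and 16.5% lower, and 13.8% of genes were higher in every ESCC mouse than in every control mouse. Since this contrast chose the members, nothing is read from where they stand in it.

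**Figure D1:**
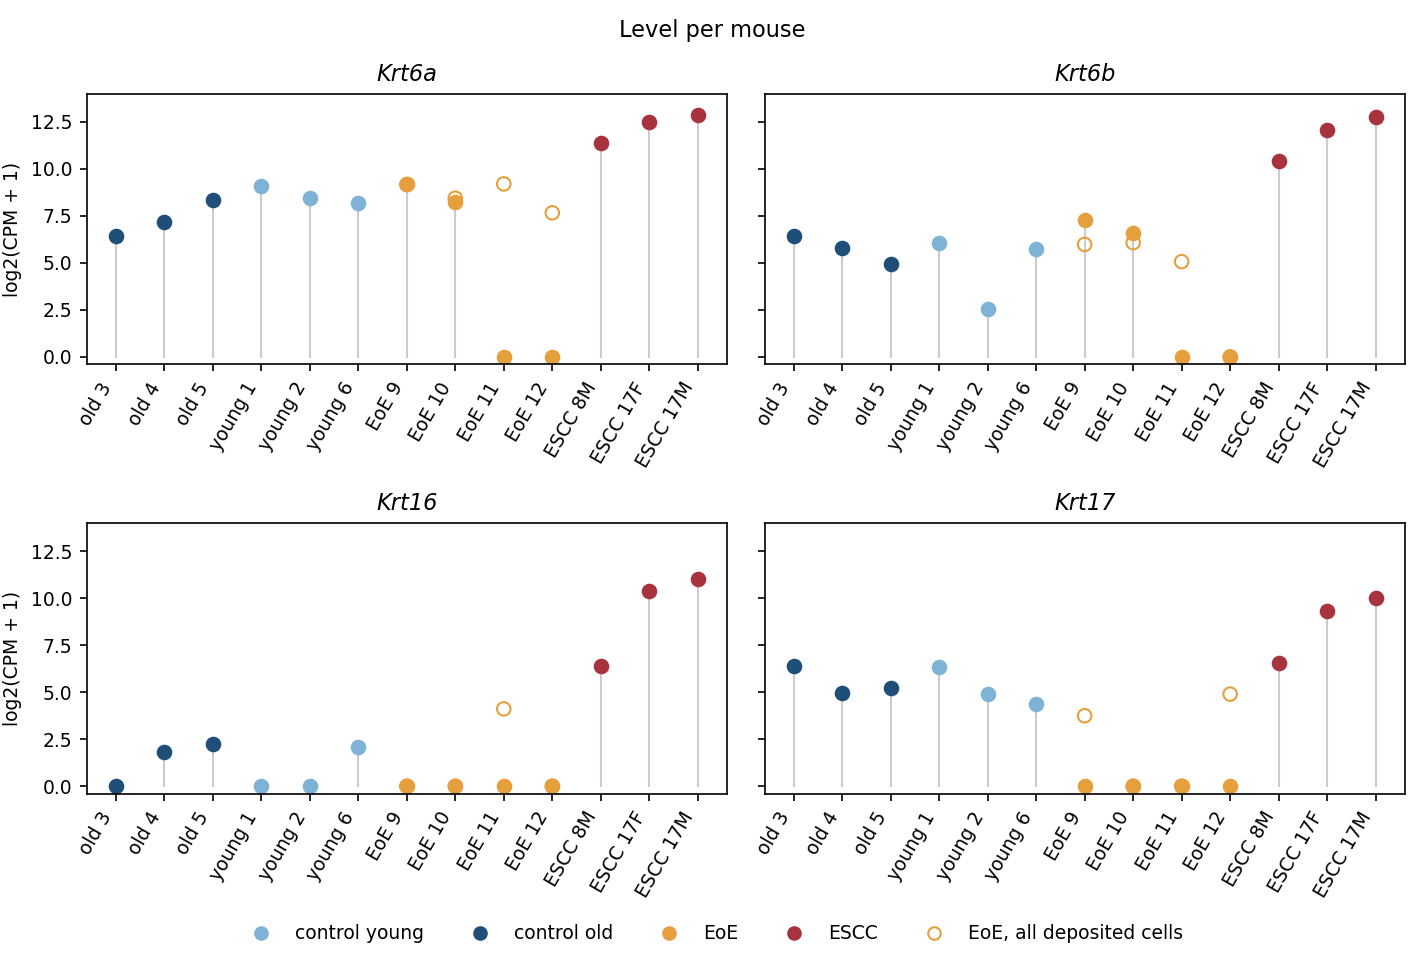
Level of each member in each mouse, as log2(CPM + 1) after TMM scaling, with 1 panel per gene and mice grouped as control, EoE and ESCC; open circles give EoE mice over all deposited cells. All 3 ESCC points lie above all 6 control points in each panel, although for Krt17 mouse 8M falls below 2 control mice by library size alone, and ESCC mouse 8M is the lowest ESCC point in all 4.

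The ESCC mice kept 1 order throughout: 8M was lowest and 17M highest for all 4 members. The highest over the lowest mouse was 2.86 for Krt6a, 5.04 for Krt6b, 11.2 for Krt17 and 25.3 for Krt16. The libraries of the same mouse were far closer, at 1.00 to 1.60 for any member, although they shared cells. Mouse 8M also differed in the makeup of the 4 chains. It held 22.9 UMIs of Krt6a and Krt6b for each UMI of Krt16 and Krt17, against 5.11 in 17F and 4.64 in 17M, and Krt16 was 47.2% of its type I member UMIs against 67.4 and 66.8%. Together the members made up 0.387 to 1.15% of all keratin UMIs in control mice and 10.5, 29.0 and 33.2% in ESCC mice 8M, 17F and 17M. S100a8 and S100a9, alarmin genes often read with these keratins, showed the same split, at 24.6 and 10.8 CPM in 8M and 1468 to 2028 CPM in the others. They come from the keratinocyte activation list described below, whose other genes are not given per mouse. Immune marker genes did not set 8M apart. Summed over 18 genes they were at 246 CPM in 8M, 183 in 17F and 302 in 17M, with 13, 15 and 18 of the genes detected, against 34.6 to 88.4 CPM in control with 1 to 7 detected. These sums are of kept cells, and their part in the members' levels was not tested.

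In EoE the members had few UMIs. Krt6a was at 580 and 304 CPM in the young EoE mice 9 and 10 and had no UMI in the old mice 11 and 12, where 3 UMIs would have been 300.3 and 143 CPM. The pooled ratio to control was 0.957, with a counting interval of 0.648 to 1.37 from 32 UMIs. The fitted log2 fold change of Krt6a was -0.06, and it was 0.10 with library sizes alone, 0.64 over all deposited cells and -0.93 to 0.30 with each mouse left out, the lowest without EoE mouse 9. Over the table, 34.4% of genes were called between EoE and control, 5.34% were higher in every EoE mouse than in every control mouse and 29.4% lower. Krt6b was at 153 and 93.5 CPM in mice 9 and 10 and at 0 in 11 and 12, with a pooled ratio of 1.74 (0.769 to 3.47, from 9 UMIs). Krt17 had no UMI in EoE against 75 in control. A lower level was not detectable per mouse at this depth, since 3 UMIs would be 70.1 to 300.3 CPM in an EoE mouse, and the counting interval of the pooled ratio reached up to 0.8003. The kept EoE cells were also 0 to 11.8% basal-keratin cells by the split defined below, against 37.9 to 64.3% in control, where the differentiated cells held Krt17 at 21.5 CPM, under the 28.2 CPM that 3 UMIs are over the EoE group. The part of this difference in cells was not tested. Krt16 had none either, which cannot be set against the 3 UMIs of control. Over all deposited EoE cells, Krt6a was at 570.5, 344.4, 584.5 and 201.0 CPM in mice 9 to 12, whereas the zeros of the old mice within the limits rest on 11 and 34 cells. Krt16 then had 1 UMI, in mouse 11, and Krt17 was at 12.4, 0, 0 and 28.7 CPM. In summed counts, fewer cells that use a gene and less RNA per cell cannot be told apart. The shares of cells with a UMI, given next, depend on both and do not separate them either.

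Deep cells show a gene more often, so each cell was thinned to 250 UMIs at random before counting. Krt6a then had a UMI in 1.52 to 11.7% of the cells of a control mouse and in 23.7, 49.2 and 53.5% of cells in ESCC mice 8M, 17F and 17M. Krt6b was found in 0 to 1.89% of cells in control mice and in 10.3, 22.9 and 35.8% in those ESCC mice. Krt16 was found in 0 of 1372 control cells, which allows a share of up to 0.219% of cells with a UMI at this depth and does not limit cells that use the gene at a low level, and in 1.37, 13.1 and 20.6% of ESCC cells. Krt17 was found in 0 to 1.89% of control cells per mouse and in 1.72, 8.28 and 11.9% in ESCC. For Krt17 the share in mouse 8M (exact binomial interval 0.560 to 3.96%) fell inside the control range, while the other ESCC mice lay above it. In EoE, Krt6a was found in 0 to 12.2% of cells per mouse and Krt16 and Krt17 in 0 of 143, which allows up to 2.10% of cells with a UMI at this depth. Without thinning, the mean share over ESCC mice was 86.1% for Krt6a, 54.2% for Krt6b, 33.7% for Krt16 and 27.8% for Krt17, and over control mice it was 19.5, 2.79, 0.198 and 4.28%.

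Free RNA in droplets gives UMIs of abundant genes to cells that do not use them. The 29 ESCC cells called non-epithelial (median 2097 UMIs against 3111 in the kept cells) were set beside the kept cells for this reason. They are no clean measure of free RNA. The call compares marker UMIs, so a droplet holding an epithelial and another cell can also receive it, and no doublet caller was run. Thinned to 250 UMIs, 6 of them held Krt6a (20.7%, exact binomial interval 7.99 to 39.7%), 6 held Krt6b, 1 held Krt16 (3.45%) and 0 held Krt17, which allows up to 10.3%. Over all kept ESCC cells the shares were 45.6% for Krt6a, 25.9% for Krt6b, 13.9% for Krt16 and 8.46% for Krt17. The pooled interval of Krt6a in kept cells was 42.9 to 48.3%, but its share per ESCC mouse ran from 23.7 to 53.5%. In mouse 8M, at 23.7%, it lay inside the non-epithelial interval. The intervals of the other 3 members overlapped. All these intervals pool the cells of the ESCC mice and leave out the spread between mice. At 29 cells they set no member's share apart from that of the non-epithelial cells. Before shared barcodes were merged, 16 of the non-epithelial cells came from 17F, 11 from 17M and 3 from 8M. Their shares are thus mostly those of the mice with more of these genes. The 3 non-epithelial cells of 8M held no UMI of Krt6b or Krt16, against 1127 and 67.4 CPM in its kept cells. In summed counts, Krt6a was at 1770 CPM in the non-epithelial cells of mouse 17M against 6322 in its kept cells, and at 1542 against 4945 in 17F. In 17F, Krt6b was at 2792 against 3636 CPM and Krt16 at 1163 against 1130 CPM, so Krt16 was not lower in the non-epithelial cells of that mouse. That Krt16 level is 40 UMIs in 16 cells. Since 1 of the 29 cells held Krt16 after thinning, the summed level need not stand for most of them. In 17M, Krt16 was at 113 against 1756 CPM.

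**Figure D2:**
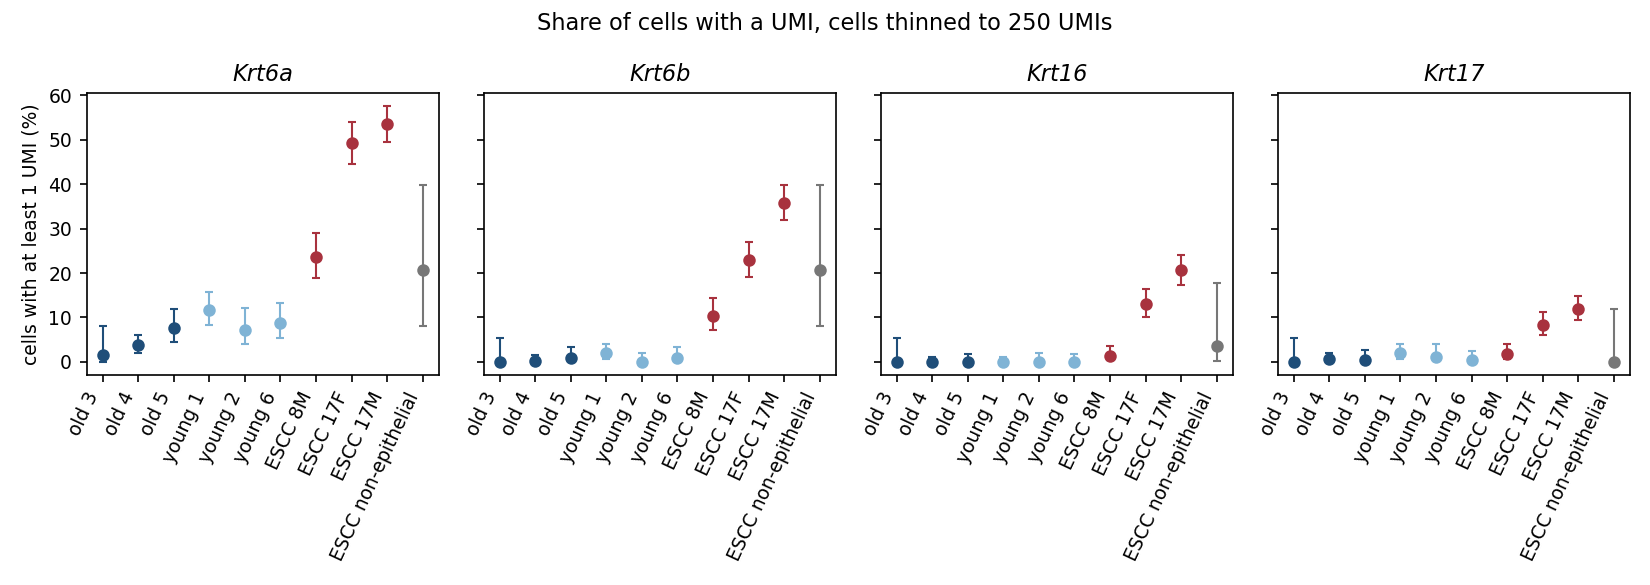
Percent of cells with at least 1 UMI of each member after thinning every cell to 250 UMIs, per control and ESCC mouse and for the ESCC cells called non-epithelial, with 95% exact binomial intervals. ESCC mice 17F and 17M lie above the control mice for every member, and the interval of the 29 non-epithelial cells is wide, from 7.99 to 39.7% for Krt6a.

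Within ESCC, cells differed in how many of the 4 chains they held. At 1000 UMIs per cell, 43.3% of the cells of mouse 8M held none of the members, against 17.9% in 17F and 11.0% in 17M. All 4 members were found in 0.344, 6.54 and 13.7% of cells. The 10% of cells richest in Krt6a held 54.6, 39.9 and 36.2% of its UMIs in 8M, 17F and 17M. For Krt6b this was 90.9, 68.0 and 61.1%, and for Krt17 it was 100, 82.0 and 76.6%. The basal chain Krt5 had 23.02, 20.6 and 19.3% in its richest 10%. These shares follow the level of a gene and do not compare members with Krt5, since in 8M only 19 of 291 cells held Krt17, fewer than the 30 richest counted. The richest cell of mouse 17M held 61 Krt6b UMIs among 1000, while its median cell held 1.

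Co-detection was counted per ESCC mouse as the number of cells holding both members over the number expected from their separate shares. Krt16 had the highest ratios in its pairs with Krt17 and Krt6b, but was at 1.24, 1.28 and 1.16 times with Krt6a in 8M, 17F and 17M. With Krt17, its type I neighbor, it was found at 1.82 times the expected number in 17F and 1.69 times in 17M, and in 2 cells against 0.849 expected in 8M. With Krt6b, a possible filament partner, it was found at 1.83, 2.26 and 1.46 times in 8M, 17F and 17M. In 17F, 52.6% of Krt6b-positive cells held Krt16 against 5.90% of the others, and in 17M it was 55.3% against 11.8%. Almost every cell with Krt16 also held Krt6a in 17F (97.2%) and 17M (97.8%), but 61.5% did in 8M, which is 8 of 13 cells. Krt6a and Krt6b came together at 1.60, 1.23 and 1.11 times the expected number. In 17F and 17M, ratios for Krt6a are bounded by its high share, since a gene present in most cells cannot exceed 1 by much. In 8M, Krt6a was found in 145 of 291 cells. Any pair is bounded by its commoner gene, such as Krt6b with 360 of 598 cells in 17M, so the ratios do not rank the pairs. Krt6b with Krt17 was found at 1.20 and 1.24 times in 17F and 17M, and in 1 cell against 3.199 expected in 8M. The part of free RNA in these ratios was not tested. Nor was that of reads from sequence shared by Krt6a and Krt6b or by Krt16 and Krt17.

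**Figure D3:**
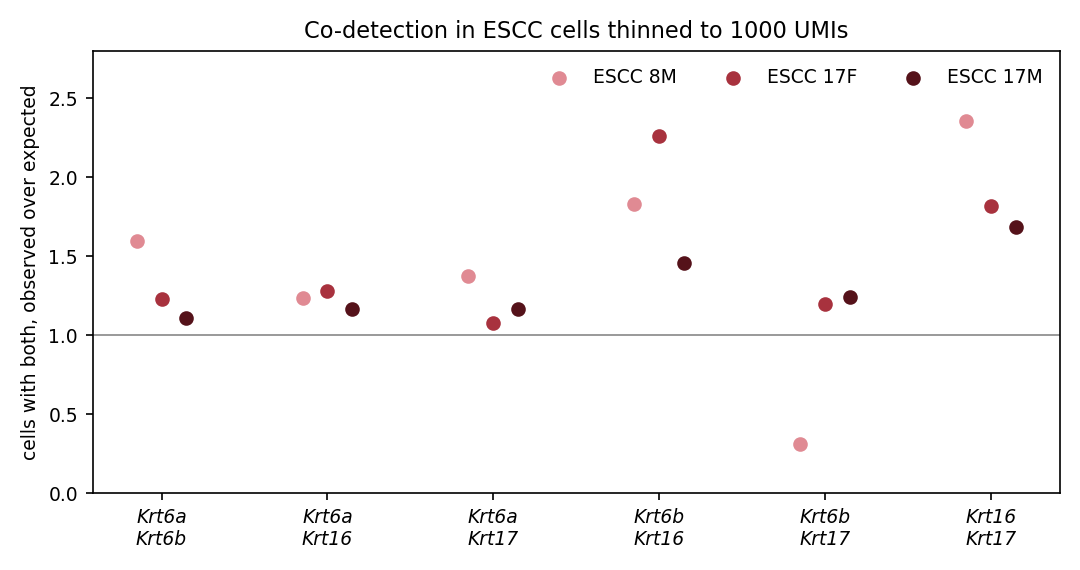
Observed over expected number of ESCC cells holding both genes of each of the 6 member pairs, at 1000 UMIs per cell, with 1 point per mouse and a line at 1. The pairs of Krt16 with Krt6b and with Krt17 lie highest, with means of 1.85 and 1.95, and the single point far below 1 is Krt6b with Krt17 in mouse 8M, at 0.313.

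Co-detection of the members with the normal esophageal keratins was counted in the same way. Over the 3 ESCC mice, Krt6b met the suprabasal chains Krt13 and Krt4 at a mean of 1.38 and 1.34 times the expected number, above 1 in each mouse. It met the basal chain Krt14 at 0.674, 0.961 and 0.997 times in 8M, 17F and 17M. Krt14 was found in 444 of 459 cells of 17F and 595 of 598 of 17M, so ratios with it could hardly leave 1 there. Krt17 met Krt13 at 1.15, 0.805 and 0.922 times and Krt4 at 1.08, 0.941 and 0.915 times. With Krt14 it was at 1.16, 1.01 and 1.005 times. In 8M the Krt17 ratios rest on 19 cells. Krt16 met Krt13 and Krt4 at 1.30 and 1.32 times, as a mean over mice that ran from 0.837 to 1.68 for Krt13.

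Cells were also split on the normal keratins. The split uses the genes whose co-detection was just given, in the same cells, so it is no separate evidence of that pattern. Each member was tested between the classes, and differences between members were not tested. A cell with at least 3 UMIs over 6 genes was called basal-keratin where Krt5, Krt14 and Krt15 outnumbered Krt4, Krt13 and Krtdap, and differentiated otherwise. The split is a range rather than a type of cell, with 43 to 58 cells per ESCC mouse within 1 log2 unit of equality. Basal-keratin cells were 76.1, 90.3 and 94.2% of cells in ESCC mice 8M, 17F and 17M, leaving 76, 48 and 38 differentiated cells, and 37.9 to 64.3% in control mice. The edgeR test compared summed classes with the mouse as a block and left the 6 genes out.

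In ESCC, Krt6a, Krt6b and Krt16 were all higher in the differentiated class. Krt6b differed most, with 3579, 14207 and 20960 CPM in the differentiated cells of 8M, 17F and 17M and 139, 2174 and 4566 CPM in their basal-keratin cells. Krt6a was at 4258, 11724 and 13108 CPM in differentiated and 1301, 4009 and 5742 CPM in basal-keratin cells. Krt16 was at 105, 2498 and 3853 against 52.4, 941 and 1577 CPM. These levels are by library size. The differentiated class was the higher in 3 of 3 mice for each of these members.

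Krt17 ran the other way. It was at 94.6, 591 and 935 CPM in the basal-keratin cells of 8M, 17F and 17M and at 28.3, 233 and 128 CPM in their differentiated cells, so basal-keratin cells were higher in 3 of 3 mice. The edgeR log2 difference, basal-keratin minus differentiated, was 1.82 ± 0.22 for Krt17 (SE, adjusted p = 1.3e-07) and -3.19 ± 0.23 for Krt6b (adjusted p = 4.8e-12), which was -2.60 and still called without mouse 8M. It was -1.60 ± 0.11 for Krt6a (edgeR, adjusted p = 1.8e-12) and -1.43 ± 0.13 for Krt16 (adjusted p = 8.0e-10). Of all 7583 genes tested, 19.9% were called, 10.0% higher and 9.86% lower in basal-keratin cells. Without the block, so that the differences between mice enter the error, no member was called by edgeR (adjusted p = 0.052 for Krt6a, 0.073 for Krt6b, 0.40 for Krt16 and 0.12 for Krt17). Differentiated cells were also deeper, with a median of 3997.5 to 4373.5 UMIs against 2786.5 to 3369, and the directions were the same with classes read from cells thinned to 1000 UMIs.

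The balance within each chain type shifted accordingly. Krt6b was 9.66, 35.2 and 44.3% of the Krt6a and Krt6b UMIs in the basal-keratin cells of 8M, 17F and 17M and 45.7, 54.8 and 61.5% in their differentiated cells. Krt16 was 35.7, 61.4 and 62.8% of the Krt16 and Krt17 UMIs in basal-keratin cells and 78.7, 91.5 and 96.8% in differentiated cells. Both shares were higher in the differentiated cells of every ESCC mouse.

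Control epithelium was split in the same way. Krt6b was confined almost wholly to differentiated cells, with 79 UMIs there and 3 in basal-keratin cells, all 3 in mouse 1, a ratio of 18.6 with a counting interval of 6.13 to 92.0 (edgeR adjusted p = 1.1e-08). Krt17 was higher in basal-keratin cells in 6 of 6 control mice, by 1.65 ± 0.44 on the log2 scale (SE, edgeR adjusted p = 0.00105). Krt6a was, unlike in ESCC, slightly higher in basal-keratin cells. Its difference was 0.47 ± 0.17 (SE, edgeR adjusted p = 0.0176), with 5 of 6 mice in that direction and mouse 6 the exception. This call was lost without the block (adjusted p = 0.29) and when control mouse 2, 3 or 5 was left out, at 0.36, 0.35 and 0.17 log2 units. Of 3978 genes tested in control, 23.9% were called higher and 21.8% lower in basal-keratin cells.

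**Figure D4:**
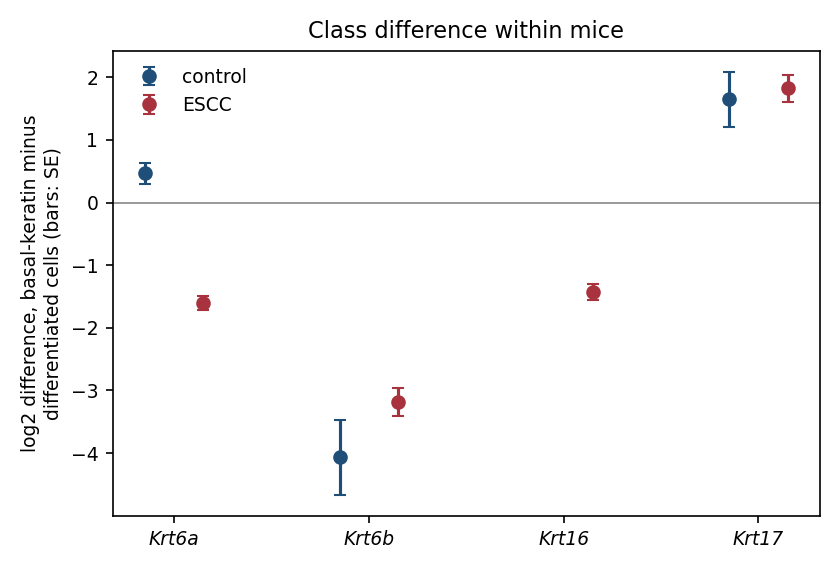
Log2 difference of basal-keratin minus differentiated cells for each member, with the standard error of the edgeR fit, in control and in ESCC mice. Krt17 lies above 0 in both conditions, Krt6b below 0 in both, and Krt6a above 0 in control at 0.47 and below 0 in ESCC at -1.60.

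The difference between the conditions was itself tested, in a comparison added after the values above had been seen. For Krt6a the class difference was lower in ESCC than in control by 2.04 ± 0.20 on the log2 scale (edgeR, adjusted p = 2.3e-11), and it stayed called, at -2.22 to -1.83, with each mouse left out in turn. Of 5120 genes tested, 0.195% were called in that direction and 1.80% in either. For Krt17 it was 0.24 ± 0.51 (edgeR, adjusted p = 0.94) and for Krt6b 1.06 ± 0.94 (adjusted p = 0.78), and a difference of 1 log2 unit lay within 2 SE of both. With each mouse left out the Krt6b value was 0.55 to 4.55, the highest without control mouse 1, which held all 3 Krt6b UMIs of the control basal-keratin cells, and the Krt17 value -0.27 to 0.80. Krt16 could not be compared, with 3 control UMIs. The differentiated class was not made up alike in ESCC and control. On the log2 ratio used in the next paragraph, 601 of its 791 control cells lay below -2, against 80 of 162 in ESCC. The part of this in the class differences was not tested.

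A finer view ordered cells by the log2 ratio of basal over differentiation UMIs in 5 ranges. Levels are by library size and per mouse, since 8M gave 53 of the 80 ESCC cells below -2 and 23 of the 82 between -2 and 0. Krt6b was highest near the differentiated end. From below -2 to above 4 it was at 4707, 579, 322, 68.6 and 35.1 CPM in mouse 8M, at 13925, 14361, 8443, 2050 and 453 CPM in 17F and at 19985, 21239, 12248, 3032 and 1248 CPM in 17M. It was lowest in the most basal range in all 3 mice. Krt6a was highest below -2 in 8M, at 4980 CPM, and between -2 and 0 in 17F and 17M, at 13267 and 13776 CPM, and was lowest above 4 in each, at 927, 2053 and 3269 CPM. Krt16 differed between mice. In 8M it was highest below -2, at 132 CPM against 31.03 and 100 CPM in the next ranges, while in 17F it was at 1189, 3210 and 3396 CPM and in 17M at 3281, 4017 and 3807 CPM. Krt17 was lowest below -2 in each mouse, at 3.89, 27.0 and 109 CPM, and highest between 2 and 4 in 8M and 17F, at 130 and 1001 CPM, and between 0 and 2 in 17M, at 1194 CPM. Below -2 the mice 17F and 17M had 16 and 11 cells, so the levels there rest on few cells. In control, pooled over mice, Krt6b went from 87.3 CPM below -2 to 38.1 and 8.16 CPM and to 0 in the ranges above 2, while Krt17 went from 12.3 CPM below -2 to 154 CPM above 4. Control Krt6a was lowest below -2, at 192 CPM, highest between -2 and 0, at 477 CPM, and at 378 to 385 CPM in the ranges above 0.

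**Figure D5:**
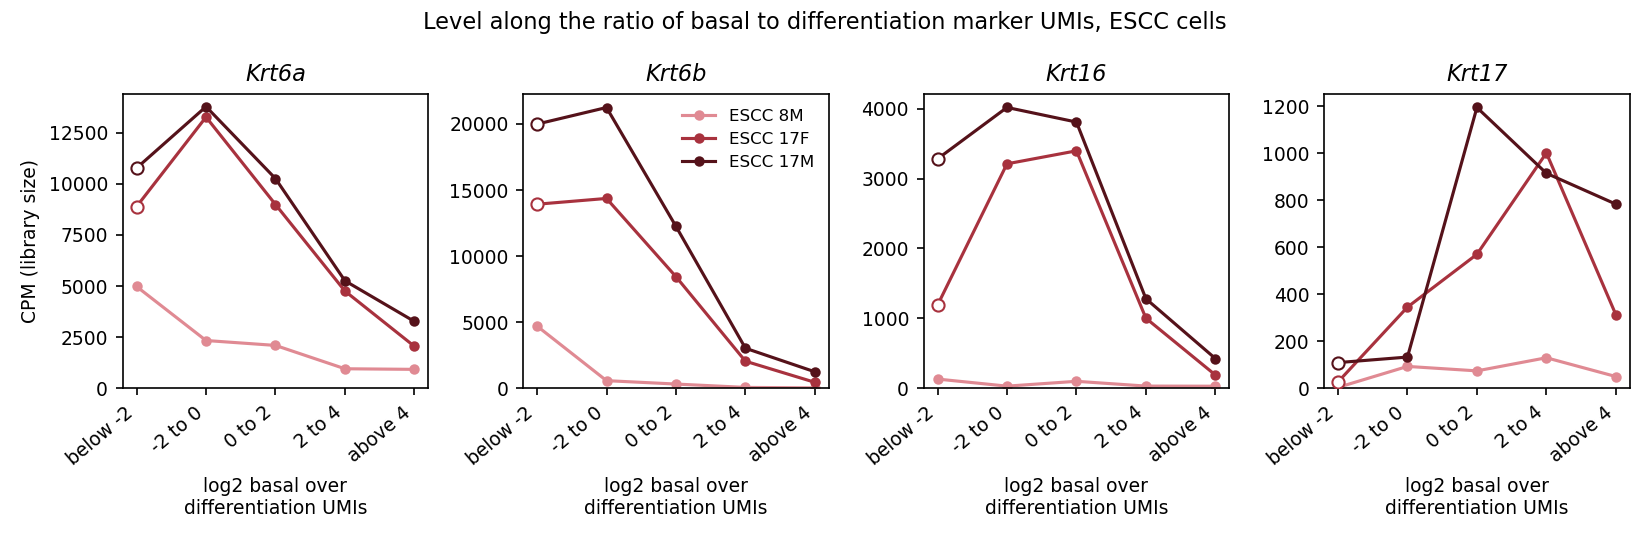
CPM by library size of each member in 5 ranges of the log2 ratio of basal (Krt5, Krt14, Krt15) over differentiation (Krt4, Krt13, Krtdap) UMIs per cell, with 1 line per ESCC mouse; open points rest on under 20 cells. Krt6a, Krt6b and Krt16 decline toward the most basal range in 17F and 17M, and Krt17 is lowest in the most differentiated range in all 3 mice.

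Cycling cells were compared with the rest, since these keratins are known from overgrowing epithelium. Cells with at least 2 UMIs of 22 proliferation genes were 44.97, 44.4 and 47.1% of the cells in ESCC mice 8M, 17F and 17M. All 4 members were lower in them in 3 of 3 mice. Krt6b was at 448, 1780 and 3302 CPM in the cycling cells of 8M, 17F and 17M and at 1775, 5439 and 8798 CPM in the others. The edgeR log2 difference was -1.70 ± 0.06 for Krt6b (adjusted p = 1.3e-23) and -1.42 ± 0.08 for Krt16 (adjusted p = 9.1e-18). It was -0.73 ± 0.05 for Krt6a (edgeR, adjusted p = 6.4e-15) and -0.58 ± 0.09 for Krt17 (adjusted p = 5.8e-06). Of 8457 genes tested, 12.4% were called, 6.93% higher and 5.45% lower in cycling cells. Without the mouse as a block no member was called by edgeR (adjusted p = 0.27 to 0.85). In control, Krt6a was higher in cycling cells in 6 of 6 mice, at 410 CPM pooled against 264 CPM in the rest. The difference between conditions was not tested for this split.

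Age was compared within control. Krt6a was at 84.2 to 327 CPM in old and 284 to 545 CPM in young mice, ranges that overlap, with a log2 difference of -1.02 ± 0.41 (SE) that missed the threshold (edgeR, p = 0.0194, adjusted p = 0.9996). Krt6b differed by 0.18 ± 0.63 and Krt17 by -0.17 ± 0.82. With each control mouse left out, the values were -1.68 to -0.68 for Krt6a, -0.22 to 0.69 for Krt6b and -0.53 to 0.82 for Krt17, with no member called. edgeR called 0 of 6487 genes (0.00%), with 291 at an unadjusted p under 0.05, and DESeq2 called 1. Whether the EoE difference depended on age was tested too, and no member was called (edgeR, adjusted p = 0.67 for Krt6a and 0.71 for Krt6b), where 0.0154% of genes were. The old EoE mice had no member UMI, so these fits carry little.

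The remaining keratins of stratified epithelium moved in both directions in ESCC. Of a list of 21, 10 passed the filter on low counts, and edgeR called 4 higher and 6 lower, beside 17.9% higher and 16.5% lower over all genes. Krt14 and Krt5, the basal pair, rose by 2.10 ± 0.26 and 1.07 ± 0.24 on the log2 scale, and the epidermal pair Krt1 and Krt10 rose by 1.20 ± 0.41 and 1.23 ± 0.38. The suprabasal esophageal pair Krt4 and Krt13 fell by 2.99 ± 0.43 and 1.28 ± 0.37. Krt80, Krt78, the basal chain Krt15 and Krt23 fell by 3.94, 3.69, 1.49 and 1.00. The adjusted p of these keratins ran from 9.76e-08 to 0.0215 (edgeR). DESeq2 called 2 keratins of the list higher and 5 lower. The median log2 fold change over all genes was 0.01 here, 0.12 with DESeq2 and -0.18 with library sizes alone. In the EoE mice 2 of the 10 were called higher and 3 lower, beside 9.47% higher and 25.0% lower over all genes.

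Genes of the surroundings of these keratins were taken from lists written by hand. Of 13 genes of the oxidative stress factor NRF2 and its targets, 12 rose in ESCC and 1 was not called (background 17.9% higher). Slc7a11, which imports cystine, rose by 5.26 ± 0.33, Gclc, of glutathione synthesis, by 2.46 ± 0.19, Hmox1, which breaks down heme, by 2.37 ± 0.32, and Srxn1, which repairs peroxiredoxins, by 2.25 ± 0.26. With library sizes alone 11 rose and 1 fell. In EoE, 0 of the 13 were called higher and 5 lower, beside a background of 9.47% higher and 25.0% lower and a median of -0.75 over all genes.

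AP-1 subunits, immediate early transcription factors, went the other way: of 6 tested, 0 rose and 5 fell in ESCC, among them Fosb by 1.96 ± 0.28, Fos by 1.57 ± 0.27, Junb by 1.04 ± 0.23 and Jun by 0.79 ± 0.25 (background 16.5% lower). The count was 3 when ESCC mouse 17F or 17M was left out. DESeq2 called 1 higher and 4 lower. In EoE, 5 of the 6 were called lower, beside 25.0% of all genes. Of 7 tested genes of the EGF receptor and its ligands, 0 rose and 2 fell, the ligand Hbegf by 1.41 ± 0.25 and the receptor Erbb3 by 1.00 ± 0.22. These 28.6% called lie near the 34.4% called over all genes, so nothing is read from the count. With library sizes alone or without mouse 8M, 4 fell.

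The keratinocyte activation genes that could be tested were mixed. Of 33 that the table lists, 12 passed the filter, 4 rose, 4 fell and 4 were not called. Over all genes, 17.9% rose and 16.5% fell. S100a8 and S100a9, given per mouse above, did not pass the filter, so the 12 leave them out. Il1f9, an epidermal cytokine, rose by 2.48 ± 0.27, while the antimicrobial peptide gene Defb4 fell by 4.23 ± 0.57, the protease inhibitor Slpi by 1.53 ± 0.59 and Serpinb3a by 1.23 ± 0.43. Without the filter 18 were called, 14 higher and 4 lower. With DESeq2, 4 were higher and 1 lower, and the count was 13 without mouse 8M and 5 without 17F. Of 15 desmosome and plakin genes that anchor keratin filaments, 2 rose and 6 fell, beside 17.9% higher and 16.5% lower over all genes. Among them 2 pairs had the largest log2 changes. Dsc1 and Dsg1a, cadherins of upper-layer desmosomes, fell by 3.09 ± 0.51 and 2.82 ± 0.37, and the cornified envelope plakins Ppl and Evpl fell by 2.60 ± 0.37 and 1.91 ± 0.25. In the class split of ESCC cells, 10 of these 15 genes were lower and 4 higher in basal-keratin cells, beside 9.86 and 10.0% of all genes.

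Finally, genes were ranked by likeness to the members. Over ESCC cells thinned to 1000 UMIs, Pearson's r with the summed members was averaged over the 3 mice, as a description of cells that share the thinned total. The 10 genes with the highest mean r were Fabp5 (0.605), a fatty acid binding protein, Krtdap (0.564), a keratinocyte differentiation protein, Ly6d (0.539), Krt13 (0.529), Lypd3 (0.451), Sfn (0.449), Calm4 (0.416), the transglutaminase Tgm3 (0.409), Dmkn (0.404) and the connexin Gjb2 (0.402). In all, 78 of 7772 genes had a mean r of at least 0.2 and an r above 0 in every mouse. The lowest were Sod1 (-0.328), Hpgd (-0.317) and Gclm (-0.302), chosen after their values were seen. Over the 13 mice, the 5 genes whose log2 CPM went most with that of the summed members were U2af2 (r = 0.977), Topbp1 (0.972), Rpl26 (0.967), Vdac3 (0.967) and Nudc (0.966). All 5 were at 0 in EoE mice 11 and 12 as the members were, and the mice share depth with condition, so these r describe the samples and carry no p.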

How the data were processed

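Single cell UMI counts of 22 libraries from 13 mice were used. Per the labels and the methods, the authors extracted barcodes with UMI-tools 1.0.0, aligned reads with STAR 2.7.3 to GRCm38, assigned them with featureCounts and deposited whole UMI counts per gene and cell after a filter in Seurat and a draw of 1500 cells per condition. The handling of reads that map to several genes is not given in the sources used here. The gene and UMI limits used here are those that the paper states for its filter, yet only 144 of 1500 deposited EoE cells met them. No doublet caller was run, and cells over 9500 UMIs were left out.

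The 4 members, lists and tests were chosen with earlier results of these data known. Named genes are the members, every tested keratin of the partner list, the 4 called genes with the largest ESCC change in each other list, and the 5 (mice) and 10 (cells) genes most like the members. S100a8 and S100a9 were named outside this rule. Counts were summed per mouse, or per mouse and class with the mouse as block since both classes come from 1 animal, and tested by the quasi-likelihood test of edgeR 4.0.16 under R 4.3.3, after TMM scaling and filterByExpr, with Benjamini-Hochberg adjustment over all genes and a threshold of 0.05, after a test on simulated data. DESeq2 1.42.0 was an alternative. All 13 mice entered the condition fits. A group of 3 UMIs set the floors. Thinning used seed 1, and intervals are 95% exact binomial or Poisson-ratio intervals for counting error only. Shares and co-detection used Python 3.11.15, numpy 2.4.6, pandas 2.3.3 and scipy 1.17.1, figures matplotlib 3.10.9 and alignments Biopython 1.88. Gene positions and sequences are from GENCODE M21 on the same assembly. The labels' mice per condition (4 EoE, 3 ESCC) were used. Alternatives covered cells, filter, scaling, thinning, the block, shared barcodes and each mouse left out.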

Additional observations from a re-analysis of the deposited data

Results flagged for a closer look

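In 24 sets of values, 4 to 6 mice of a group were searched for an outlying mouse, and chance flags about 1 in 20 such sets. The 1 found was Krt16 over all deposited EoE cells, at 16.2 CPM in EoE mouse 11 and 0 in the other 3 mice, which is 1 UMI.

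The Krt6a difference between basal-keratin and differentiated cells was lower in ESCC than in control by -2.04 on the log2 scale in the edgeR interaction test (adjusted p = 2.3e-11). The differentiated class was made up differently in ESCC and control, as given above. Krt6a also split by cycling in opposite ways. The level in other cells over that in cycling cells was 0.644 in control, below 1 in 6 of 6 mice, and 1.57 in ESCC, above 1 in 3 of 3. That difference was not tested, and cycling cells were called at unlike depth in control and ESCC, as given above.

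Cells called non-epithelial, which were left out of the tests and set beside the kept cells for the shares, held members in ESCC. At 1000 UMIs per cell, 31.03% of 29 held Krt6a and 24.1% held Krt6b, above the 10.3% that a count of 0 allows, which says only that UMIs of these genes were present. The 6 such control cells held none at 250 UMIs, a number too small to compare.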

How the results depend on the processing

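None of 509 values under alternatives was a reversal, which could only be recorded for member fold changes in tested contrasts. Of 249 member fold changes, 237 were counted as the same and the rest lost their call. In tested contrasts, same means that the call did not change. For ESCC or EoE against control it means a shift within the SD of the mice. In EoE, Krt6a ran from 0 to 580 CPM over the mice, so this SD was too wide for the label to say much there. Uncalled values could change sign, as Krt17 between ages did, at -0.53 to 0.82 with a mouse left out. Limits come from depth in EoE, 3 ESCC mice and 3 control UMIs of Krt16. The cause of each change below was not tested.

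The mouse block paired classes of 1 animal. Without the replicate block, calls between classes went from 1509 to 921 in ESCC and from 1820 to 1082 in control, and calls of cycling cells from 1047 to 312. Member differences then missed the threshold at -1.57 (Krt6a), -2.68 (Krt6b), -1.50 (Krt16) and 1.97 (Krt17) for the ESCC classes, at 0.45 for Krt6a in control classes, and at -0.75, -1.60, -1.41 and -0.60 for cycling cells.

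EoE calls numbered 2019, 3031 over all deposited cells and 1130 to 2012 with a mouse left out (1130 without EoE mouse 10). Old against young control gave 0 calls, 1 with DESeq2, 18 without the filter, 5 with those groups alone and 0 to 1 with a mouse left out. With a mouse left out, ESCC class calls were 776 to 1361 (776 without 8M), cycling calls 518 to 907 (518 without 17F), class interaction calls 39 to 137 (39 without ESCC mouse 17M, 61 without 17F, 56 without control 5 and 52 without control 6) and the control Krt6a class difference 0.17 to 0.61.

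Shares of ESCC cells without thinning were 86.1% (Krt6a), 54.2% (Krt6b), 33.7% (Krt16) and 27.8% (Krt17). In control, Krt6a was found in 10.7% at 500 UMIs, 19.5% without thinning and 2.46% over all deposited cells at 100. Krt6b was found in 2.79% without thinning. Krt16 was found in 0.124%, 0.198% and 0.0786% and Krt17 in 2.27% at 500 and 4.28% without thinning. At 500 UMIs the co-detection ratios of Krt16 were 1.40 with Krt6a, 2.38 with Krt6b and 2.95 with Krt17. Over all deposited EoE cells the mean was 4.06 CPM for Krt16 and 10.3 CPM for Krt17.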
